A study of Arabidopsis thaliana with 12 samples.

Results

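Indole glucosinolates are sulphur-rich defence compounds that Arabidopsis thaliana, like other plants of the cabbage family, makes from tryptophan. The transcripts of 9 genes that build them, switch them on or put them to use were followed in leaves of 4 genotypes. The genes were chosen by name and locus for their known place in the pathway, with earlier results of these data known. They are 9 of the 32833 loci in the table: the transcription factors MYB34 (AT5G60890), MYB51 (AT1G18570) and MYB122 (AT1G74080), the core enzymes CYP83B1 (AT4G31500), SUR1 (AT2G20610), UGT74B1 (AT1G24100) and SOT16 (AT1G74100), the side-chain hydroxylase CYP81F2 (AT5G57220) and the activating hydrolase PEN2 (AT2G44490).

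The libraries were mRNA from leaves of untreated plants, about 50 mg of leaf each, 3 libraries per genotype. The genotypes were the wild type Col-0 (WT), a CRWN1 and CRWN4 knockout (crwn1;4, the double mutant here), and that double mutant with the CRISPR-made pnet2_a or pnet2_b mutation added (the pnet2_a and pnet2_b triple mutants). CRWN proteins are plant nuclear lamina proteins, and PNET2 belongs to the plant inner nuclear membrane. The 3 mutant genotypes all carry the crwn1;4 mutations, so no comparison shows a pnet2 mutation alone. The labels do not say whether pnet2_a and pnet2_b are single lines, and the titles give an age of 3 weeks where the protocol gives 4 weeks.

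In the pathway, CYP79 enzymes turn tryptophan into an aldoxime, CYP83B1 oxidises it, and after a sulphur donor is added SUR1 cleaves the product to a thiohydroximate. UGT74B1 adds glucose and SOT16 adds sulphate, which completes the parent molecule, and CYP81F2 hydroxylates its indole ring. PEN2 hydrolyses the modified product during attack by fungi, while MYB34, MYB51 and MYB122 activate the structural genes. Camalexin, an antimicrobial compound, is made from the same aldoxime by other enzymes.

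Of the 9 genes, 8 were above the filter of 1 FPKM (fragments counted on a transcript, scaled to its length and to the library's mapped fragments) in at least 3 libraries and were tested. MYB122 was listed at 0 in all 12 libraries. Across libraries the smallest value above 0 was 0.293 to 0.336 FPKM, so a listed 0 here and below may stand for a lower level. In both triple mutants 7 of the 8 tested genes rose against the double mutant, and MYB34 fell. Of all genes tested, 22.9% rose and 9.2% fell in pnet2_a, and 38.8% rose and 8.63% fell in pnet2_b. MYB51 showed the greatest log2 change of the 8, while CYP83B1 had the highest level of the 9 genes in every genotype and rose by 102% and 91.7% in mean FPKM in the 2 triple mutants. In the double mutant against WT, CYP83B1 alone of the 8 passed the test, where 2.41% of all genes rose and 0.591% fell. Log2 changes below are of FPKM + 1, which understates changes of genes at low level, with the standard error (SE) and limma's adjusted p over the 19110 genes kept; a gene is called at an adjusted p below 0.05.

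**Figure D1:**
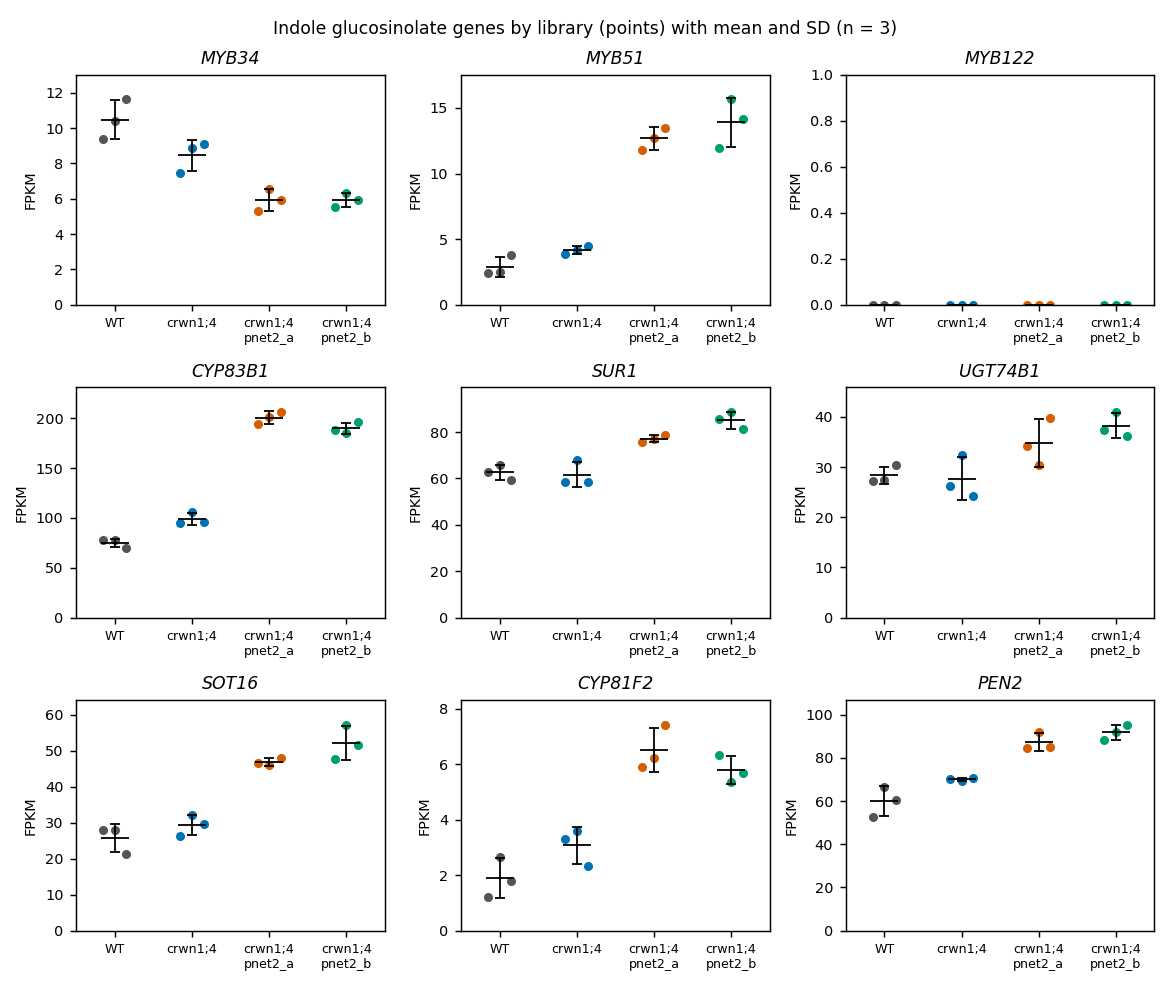
Level in FPKM (y axis, from 0, each panel on its own scale) of the 9 genes in each of the 12 libraries, by genotype on the x axis. Points are libraries and the line is the mean of 3. CYP83B1 runs from 75.0 FPKM on average in WT to 201 in the pnet2_a triple mutant, MYB34 goes down from 10.5 to 5.93, and MYB122 lies at 0 throughout.

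By mean FPKM, a measure per transcript length, the order in WT was CYP83B1, SUR1, PEN2, UGT74B1, SOT16, MYB34, MYB51 and CYP81F2. Of these neighbours, the libraries of SUR1 and PEN2, of UGT74B1 and SOT16, and of MYB51 and CYP81F2 overlap. In both triple mutants the order was CYP83B1, PEN2, SUR1, SOT16, UGT74B1 and MYB51, with CYP81F2 and MYB34 last and overlapping; PEN2 and SUR1 also overlap in pnet2_b. The double mutant already had PEN2 above SUR1, without overlap, and SOT16 above UGT74B1, with overlap. Its order differed from that of the triple mutants in the last 3 places, which were MYB34, MYB51 and CYP81F2.

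Checks on the material gave the following. CRWN1 stood at 11.6 to 13.5 FPKM in WT and 1.46 to 1.996 in the 9 mutant libraries, and CRWN4 at 6.53 to 8.43 against 1.19 to 2.08. The pnet2 mutations were not checked here. The 6 triple mutant libraries held 622263 to 640228 FPKM in total and 20640 to 21022 genes above 0. The 6 libraries of WT and the double mutant held 641937 to 669711 FPKM and 19841 to 20431 genes above 0. Neither measure overlapped between them, and the part of this shift in the results was not tested. Of 6 root markers, PLT1, RHD6 and EXPA7 were at 0 in every library and the highest single value was 10.5 FPKM. The highest flower marker value was 2.96 FPKM and the highest seed marker value 0.691, with 3 of 4 seed markers at 0 throughout. The 4 mesophyll markers, genes of the photosynthetic leaf cells, summed to 34390 to 35633 FPKM in WT and 34455 to 37292 in crwn1;4. They summed to 29170 to 30937 in pnet2_a and to 24462 to 25782 in pnet2_b. The 4 vascular markers summed to 69.8 to 89.6 in WT, 66.7 to 75.0 in the double mutant, 50.0 to 52.6 in pnet2_a and 61.5 to 66.5 in pnet2_b. Most of the vascular sum is SUC2, which went from 55.8 ± 2.73 FPKM (SD, n = 3) in the double mutant to 35.6 ± 2.08 and 47.1 ± 0.271. APL stood at 6.99, 7.004 and 7.10 in those genotypes, XCP1 at 4.65, 4.91 and 4.60, and ATHB8 at 4.23, 3.97 and 5.56. The 4 epidermis markers summed to 138 to 178 in WT, 157 to 172 in the double mutant, 125 to 134 in pnet2_a and 143 to 149.8 in pnet2_b. The 5 guard and myrosin cell markers summed to 1272 to 1559, 1237 to 1277, 1222 to 1360 and 1423 to 1515 in the same order, nearly all of it the myrosinases TGG1 and TGG2. Of the guard cell genes, KAT1 stood at 8.88 FPKM on average in WT, 8.59 in the double mutant, 3.65 in pnet2_a and 5.38 in pnet2_b. MYB60 stood at 8.29, 7.73, 4.90 and 5.07, and FAMA at 10.2, 7.02, 6.93 and 8.35. Against the double mutant, the mesophyll, vascular and epidermis sums and the levels of KAT1 and MYB60 were thus lower in both triple mutants. The root sum was higher in both. In these triple mutants the genes described here changed. The guard and myrosin sum was higher in pnet2_b, and the flower sum was lower in pnet2_a and overlapped in pnet2_b. The part of these markers in the results was not tested. In bulk leaf, fewer cells of a type and less RNA per cell cannot be told apart.

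MYB34 and MYB51 are the main activators of the pathway, MYB51 mostly in shoots and MYB34 mostly in roots. MYB34 stood at 9.41, 10.4 and 11.6 FPKM in the 3 WT libraries, 7.44, 8.86 and 9.09 in the double mutant, 5.31, 6.55 and 5.94 in pnet2_a and 5.56, 6.34 and 5.93 in pnet2_b. The WT libraries were all above those of the double mutant, which were all above the 6 triple mutant libraries. MYB34 fell by 0.45 on the log2 scale in pnet2_a (SE 0.111, adjusted p = 0.00674) and by 0.44 in pnet2_b (adjusted p = 0.00477) against the double mutant. Against WT, mean FPKM fell by 43.4% in pnet2_a and fell by 43.3% in pnet2_b (adjusted p = 0.000144 and 0.000107). These falls were called under each of the 23 alternative settings. The step from WT to the double mutant, -0.28 (95% interval -0.52 to -0.04), was not called (adjusted p = 0.214).

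MYB51 went the other way. Its 3 WT libraries held 2.43, 2.48 and 3.78 FPKM, those of the double mutant 3.85, 4.14 and 4.50, those of pnet2_a 11.8, 12.7 and 13.5 and those of pnet2_b 11.9, 15.7 and 14.1. All 6 triple mutant libraries lay above all 6 others, and the double mutant lay above WT without overlap. Its log2 change against the double mutant was 1.40 in pnet2_a (SE 0.135, adjusted p = 3.87e-06) and 1.52 in pnet2_b (adjusted p = 8.97e-07), with means 3.04 and 3.34 times as high. Against WT the means were 4.37 and 4.80 times as high (adjusted p = 1.33e-07 and 4.55e-08). The double mutant against WT gave 0.42 (95% interval 0.13 to 0.71, adjusted p = 0.12), not called. Without WT replicate 3, the highest of the WT libraries, it was 0.58 with an adjusted p of 0.0289.

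The balance between MYB51 and MYB34 can be read within a library, where library scaling drops out. The log2 ratio of MYB51 to MYB34 was -1.88 ± 0.23 (SD, n = 3) in WT and -1.02 ± 0.07 in the double mutant, then 1.10 ± 0.13 in pnet2_a and 1.22 ± 0.10 in pnet2_b. MYB34 was 3.08 to 4.19 times MYB51 in WT and 1.93 to 2.14 times in the double mutant. MYB51 was 1.94 to 2.47 times MYB34 across the 6 triple mutant libraries. The rank of the 2 activators was thus opposite in the triple mutants and in the other genotypes, in 12 of 12 libraries. The exact permutation test of 3 libraries against 3 gives p = 0.1 (two-sided, adjusted over 6 comparisons 0.12) for each of the 5 comparisons between genotypes that do not overlap, and 0.1 is the smallest p it allows. Between the triple mutants the ratio differed by 0.12 (exact permutation p = 0.3), with overlapping libraries.

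**Figure D2:**
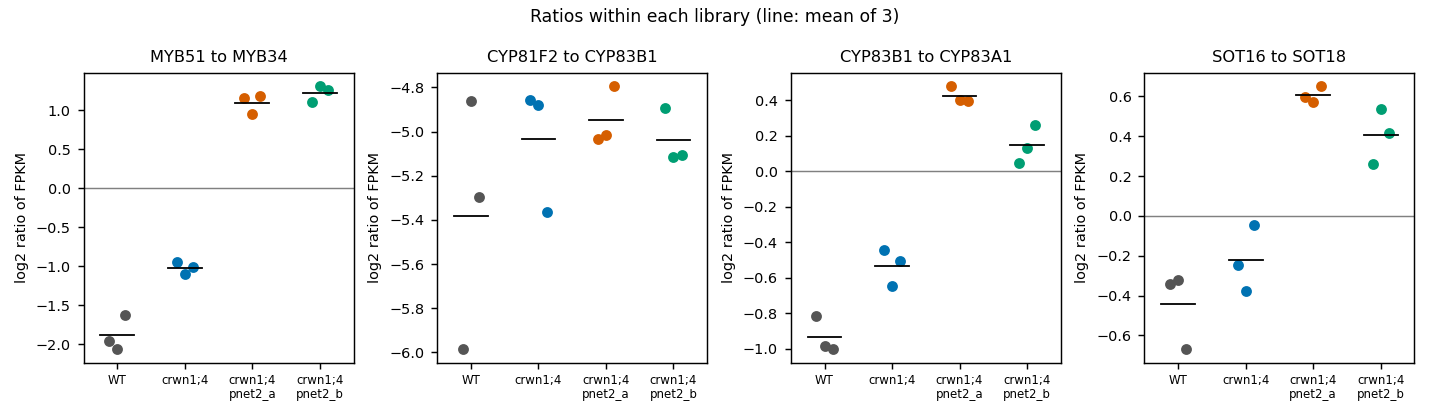
Log2 ratio of FPKM between 2 genes of 1 library (y axis), by genotype on the x axis, in 4 panels. Points are libraries and the line is the mean of 3. The ratio of MYB51 to MYB34 crosses 0 between the double mutant (mean -1.02) and the triple mutants (means 1.10 and 1.22), while that of CYP81F2 to CYP83B1 stays between -5.99 and -4.80 in all libraries.

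CYP83B1, which commits the aldoxime to indole glucosinolates, had the highest level of the 9 genes. It stood at 77.5, 77.4 and 70.1 FPKM in WT, 95.3, 106 and 95.9 in crwn1;4, 194, 202 and 206 in pnet2_a and 188, 185 and 196 in pnet2_b. The genotypes fell in 3 tiers without overlap: WT, the double mutant and the 2 triple mutants, whose ranges overlap. CYP83B1 rose in the double mutant against WT (log2 change 0.40, SE 0.0609, adjusted p = 0.00229), though with the WT and double mutant libraries fitted alone the adjusted p was 0.0817. Against the double mutant it rose by 1.01 in pnet2_a (adjusted p = 1.55e-07) and 0.93 in pnet2_b (adjusted p = 7.45e-08), or 102% and 91.7% in mean FPKM. The means of both were 2.67 and 2.53 times WT.

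SUR1, the C-S lyase that indole and aliphatic glucosinolates share, held 62.9, 65.6 and 59.3 FPKM in WT and 58.4, 67.8 and 58.6 in crwn1;4, ranges that overlap. It held 75.9, 76.8 and 78.7 in pnet2_a and 85.6, 88.6 and 81.3 in pnet2_b, with every triple mutant library above the other 6. SUR1 rose by 0.32 (SE 0.0685, adjusted p = 0.00247) and 0.46 (adjusted p = 9.33e-05) against the double mutant. Its libraries did not overlap between the triple mutants, yet the difference of 0.14 (95% interval -0.01 to 0.29) was not called (adjusted p = 0.252).

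UGT74B1, the glucosyltransferase of the next step, varied least between genotypes against its spread within them: genotype accounted for 70.0% of its variance, against 99.2% for CYP83B1. It held 27.3, 27.4 and 30.3 FPKM in WT, 26.3, 32.4 and 24.2 in crwn1;4, 34.2, 30.4 and 39.8 in pnet2_a and 37.5, 40.9 and 36.2 in pnet2_b. The pnet2_a libraries overlap those of the double mutant, and the pnet2_b libraries lie above them. It rose by 0.33 in pnet2_a (SE 0.110, adjusted p = 0.0366) and 0.46 in pnet2_b (adjusted p = 0.00362). The pnet2_a call was lost in 9 of 23 alternative settings, among them without replicate 1 or 3 of the double mutant (adjusted p = 0.108 and 0.143) and without replicate 1 or 3 of pnet2_a (0.0745 and 0.168). The pnet2_b call was lost when libraries were rescaled by median ratios (adjusted p = 0.124) or quantiles (0.0709).

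SOT16, the sulphotransferase that finishes the molecule and prefers indole substrates, held 28.1, 28.0 and 21.3 FPKM in WT and 26.4, 32.0 and 29.8 in crwn1;4, which overlap. It held 46.7, 46.0 and 48.1 in pnet2_a and 47.8, 57.2 and 51.6 in pnet2_b, all above the 6 other libraries. SOT16 rose by 0.66 (SE 0.105, adjusted p = 0.00027) and 0.81 (adjusted p = 2.98e-05) against the double mutant. Relative to WT its means were 1.82 and 2.02 times as high.

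SOT16 lies on chromosome 1 at 27864345 to 27865694 on the minus strand, a gene of 1 exon, in TAIR10.1. Between it and MYB122 (27855578 to 27857598, plus strand) lie 6746 bases that hold 2 annotated genes, of which SOT18 (AT1G74090), a sulphotransferase of aliphatic glucosinolates, is 151 bases from SOT16. So along this stretch MYB122 was listed at 0, SOT18 was at 34.9, 34.5, 30.8 and 39.3 FPKM on average in WT, the double mutant, pnet2_a and pnet2_b, with no call against the double mutant on FPKM, and SOT16 rose. SOT18 in pnet2_b was 0.20 (adjusted p = 0.0941), but was called on TPM (0.25, adjusted p = 0.0378) and without replicate 2 of the double mutant (0.33, adjusted p = 0.00145). The coding sequences of SOT16 and SOT18 are 80.5% identical, with a longest identical stretch of 32 bases.

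The aliphatic relatives offer 2 more ratios within a library, both chosen after their values were seen. The log2 ratio of SOT16 to SOT18 was -0.44 ± 0.20 (SD, n = 3) in WT and -0.22 ± 0.17 in crwn1;4, then 0.61 ± 0.04 in pnet2_a and 0.40 ± 0.14 in pnet2_b. CYP83B1 and CYP83A1, the enzyme of the aliphatic branch, were compared likewise: the log2 ratio of CYP83B1 to CYP83A1 was -0.93 ± 0.10, -0.53 ± 0.10, 0.42 ± 0.05 and 0.15 ± 0.11 in the same order. In both pairs the indole gene was the lower one in each of the 6 libraries of WT and the double mutant and the higher one in each of the 6 triple mutant libraries. The pairs of UGT74B1 and SOT16 with UGT74C1 and SOT17 did not cross in this way. UGT74B1 was below UGT74C1, its aliphatic counterpart, in every library, with UGT74C1 at 62.8, 54.99, 52.7 and 62.9 FPKM on average in the same order. SOT16 was on average above SOT17, a further aliphatic sulphotransferase, in all 4 genotypes, with SOT17 at 20.7, 19.7, 19.5 and 28.0. Both triple mutants lay above the double mutant without overlap for either ratio (exact permutation p = 0.1, the smallest that 3 against 3 allows, so that no p under 0.05 is possible). The ratio was lower in pnet2_b than in pnet2_a by 0.28 for CYP83B1 to CYP83A1 and by 0.20 for SOT16 to SOT18, also without overlap (exact permutation p = 0.1).

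CYP81F2 hydroxylates the indole ring on the way to 4-methoxyindol-3-ylmethyl glucosinolate, the substrate of PEN2 in defence. It held 1.22, 2.67 and 1.78 FPKM in WT, 3.29, 3.6 and 2.33 in crwn1;4, 5.92, 6.24 and 7.42 in pnet2_a and 6.33, 5.35 and 5.69 in pnet2_b. The 6 triple mutant libraries lie above the 6 others, while WT and the double mutant overlap. CYP81F2 rose by 0.89 in pnet2_a (SE 0.175, adjusted p = 0.00138) and by 0.75 in pnet2_b (adjusted p = 0.00309); the latter was lost under quantile scaling (0.44, adjusted p = 0.0612). The double mutant against WT gave 0.51 (adjusted p = 0.144), not called, but 0.70 (adjusted p = 0.039) without WT replicate 2, the WT library with the highest value.

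The level of CYP81F2 against that of CYP83B1 was also taken within each library. The log2 ratio of CYP81F2 to CYP83B1 was -5.38 ± 0.57 (SD, n = 3) in WT, -5.03 ± 0.29 in the double mutant, -4.95 ± 0.13 in pnet2_a and -5.04 ± 0.13 in pnet2_b. Libraries of the 6 comparisons all overlap, with exact permutation p from 0.3 to 0.9 (0.9 adjusted). The spread of the ratio was widest in WT.

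PEN2, an atypical myrosinase needed for resistance to non-adapted fungi, held 52.9, 66.6 and 60.7 FPKM in WT, 70.0, 69.5 and 70.6 in crwn1;4, 84.7, 92.2 and 85.0 in pnet2_a and 88.4, 92.0 and 95.3 in pnet2_b. Each of the double mutant's libraries was above WT, and each triple mutant library above those. PEN2 rose by 0.31 in pnet2_a (SE 0.0751, adjusted p = 0.00567) and 0.39 in pnet2_b (adjusted p = 0.00084), the latter only 0.14 under median-ratio scaling (adjusted p = 0.14). The double mutant against WT gave 0.23 (adjusted p = 0.133), not called, with an adjusted p of 0.0371 without WT replicate 2.

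**Figure D3:**
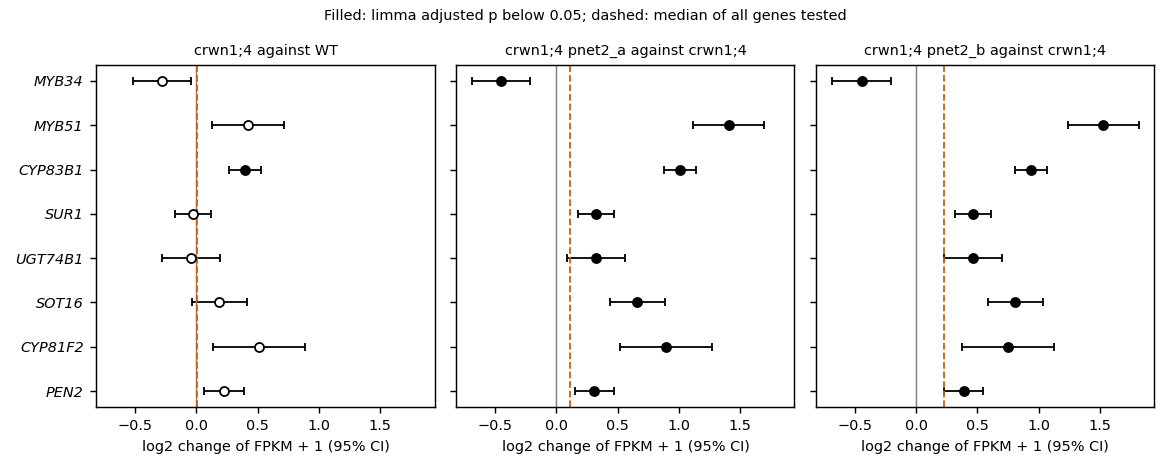
Log2 change of FPKM + 1 (x axis) of the 8 tested genes (y axis) in 3 panels, the double mutant against WT and each triple mutant against the double mutant. Bars are limma's 95% intervals, filled points are called, and the dashed line is the median of all genes tested. In the 2 triple mutant panels MYB34 lies at -0.45 and -0.44 and the 7 others between 0.31 and 1.52, while in the double mutant against WT all 8 lie between -0.28 and 0.51.

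Set against all genes, the members' counts read as follows. The members were chosen with earlier results of these data known, so these counts are a description and no independent test. In the double mutant against WT 1 of 8 rose and none fell, where 2.41% of all tested genes rose and 0.591% fell. At limma's unadjusted p under 0.05, 5 of the 8 passed, MYB34 among them as a fall. The share of all genes at that level was not taken, so this count has no background and is not read further. In pnet2_a against the double mutant 7 rose and 1 fell, where 22.9% rose and 9.2% fell. In pnet2_b against the double mutant the same 7 rose and MYB34 fell, where 38.8% rose and 8.63% fell. These backgrounds are high, and they depend on the scaling: rises were 71.3% of all calls in pnet2_a and 81.8% in pnet2_b on FPKM, but 51.8% and 50.5% after median-ratio scaling. FPKM itself puts the median of all genes at 0.11 in pnet2_a and 0.23 in pnet2_b, so the members' medians of 0.49 and 0.61 lay 0.38 above it in either case. After median-ratio scaling 6 of 8 rose in pnet2_a and 5 of 8 in pnet2_b, and MYB34 fell in both. Of all genes, 15.6% and 18.3% then rose and 14.5% and 17.9% fell.

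Against WT, 6 of 8 rose and 1 fell in pnet2_a (background 25.4% and 10.5%), with UGT74B1 not called (adjusted p = 0.0606), and 7 rose and 1 fell in pnet2_b (38.4% and 9.25%). Rises made up 70.7% and 80.6% of all calls there, and 53.7% and 51.9% after median-ratio scaling. These comparisons share their triple mutant and WT libraries with those above and add no separate evidence. Between the triple mutants none of the 8 was called by limma in either direction, where 2.12% of all genes rose and 0.754% fell in pnet2_b, and none reached an unadjusted p under 0.05. Rises were 73.8% of all calls between the triple mutants on FPKM and 25.5% after median-ratio scaling. The intervals of the difference ran from -0.21 to 0.05 for CYP83B1, -0.23 to 0.24 for MYB34, -0.17 to 0.41 for MYB51 and -0.52 to 0.23 for CYP81F2, and a difference within those bounds could not be told from none.

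Among the members themselves, patterns over the 12 libraries were compared as root-mean-square distance of centred log2 values. SUR1 and UGT74B1 were the closest pair (0.10) and MYB34 and MYB51 the farthest (1.16), and CYP83B1 lay nearer to CYP81F2 (0.19) than to MYB51 (0.31). The genes nearest to MYB34 among 5901 candidates were PnsB4 (0.0992), CRR3 (0.117) and PLP9 (0.119). PnsB4 stood at 169.8 FPKM in WT, 149 in crwn1;4, 115 in pnet2_a and 104 in pnet2_b. Those nearest to MYB51 were WRKY15 (0.121), HSF4 (0.144) and ATAF2 (0.161), with WRKY15 at 5.91, 8.90, 24.3 and 28.4 FPKM in the same order.

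In TAIR10.1, MYB34 lies on chromosome 5 at 24494291 to 24496371 on the plus strand, MYB51 on chromosome 1 at 6389399 to 6391386 (plus), and CYP83B1 on chromosome 4 at 15273410 to 15275404 (minus). SUR1 lies on chromosome 2 at 8877887 to 8880440 (minus) and UGT74B1 on chromosome 1 at 8525334 to 8527087 (minus). CYP81F2 lies on chromosome 5 at 23187840 to 23189902 (plus) and PEN2, with 11 exons the most divided of the 9 genes, on chromosome 2 at 18364652 to 18367835 (plus). No member overlaps another annotated gene.

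The promoters shown are those of the 3 genes with the most matches to a set of short motifs. They were picked by these matches, without regard to expression. Each is the 250 bases before the annotated start, 5′ to 3′ on the gene's strand, from the RefSeq annotation of TAIR10.1, and capitals mark the matches.
SUR1, chr2:8880441-8880690, minus strand: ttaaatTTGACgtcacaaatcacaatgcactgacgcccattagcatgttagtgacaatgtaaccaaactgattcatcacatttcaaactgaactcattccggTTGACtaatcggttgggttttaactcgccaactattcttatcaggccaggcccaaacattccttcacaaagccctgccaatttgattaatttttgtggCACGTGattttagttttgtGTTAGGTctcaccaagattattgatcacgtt
CYP81F2, chr5:23187590-23187839, plus strand: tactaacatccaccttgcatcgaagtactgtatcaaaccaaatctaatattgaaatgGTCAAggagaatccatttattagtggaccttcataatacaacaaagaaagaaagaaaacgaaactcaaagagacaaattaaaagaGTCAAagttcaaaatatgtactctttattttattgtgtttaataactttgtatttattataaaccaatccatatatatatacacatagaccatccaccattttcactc
MYB51, chr1:6389149-6389398, plus strand: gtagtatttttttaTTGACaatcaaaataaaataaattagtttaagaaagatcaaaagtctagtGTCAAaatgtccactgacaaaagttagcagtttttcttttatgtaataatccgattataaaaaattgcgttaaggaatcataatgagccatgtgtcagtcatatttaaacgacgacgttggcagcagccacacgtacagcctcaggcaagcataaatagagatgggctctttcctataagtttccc
The motifs searched on both strands were TTGAC (the W-box core of WRKY factors), CACGTG (the G-box that MYC factors bind) and AC-type elements of MYB factors. The latter were ACCTAAC as one spelling, then ACCAACC as another, and the further spelling ACCTACC. SUR1 holds TTGAC at 244 and 148 bases before its start, CACGTG at 50 and ACCTAAC on the other strand at 31. CYP81F2 holds TTGAC on the other strand at 193 and 108, and MYB51 holds it at 236 and, on the other strand, at 186. No matches overlap. TTGAC was present in 4 of 9 members (PEN2 is the fourth), where 44.9% of 27443 promoters of that length hold it, so the share is that of promoters in general. CACGTG was in 1 of 9 (6.49% of all promoters), ACCTAAC in 1 of 9 (2.46%) and ACCAACC in 2 of 9, SOT16 and UGT74B1 (2.69%). ACCTACC was in none (1.16%). The windows of CYP83B1, MYB34 and MYB122 hold none of these letters. A match is a description of letters and no sign of binding.

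Around the 9 genes, 52 others of the pathway and its branches were listed by role, of which 51 were tested; MYC5 did not pass the filter. In pnet2_a against the double mutant 25 rose and 3 fell, and in pnet2_b 33 rose and 3 fell, against 6 and 0 in the double mutant against WT. Of all genes tested, 22.9% rose in pnet2_a and 38.8% in pnet2_b, as above, and each list's counts are to be read against these shares. The lists, like the members, were chosen with earlier results of these data known. After median-ratio scaling the counts in the triple mutants were 23 and 7 in pnet2_a and 25 and 7 in pnet2_b, where 15.6% and 18.3% of all genes rose and 14.5% and 17.9% fell.

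All 7 genes of tryptophan synthesis rose in both triple mutants against the double mutant, with median log2 changes of 0.72 and 0.73; after median-ratio scaling 7 and 6 of them did. ASA1, the anthranilate synthase subunit that opens the branch, stood at 20.8 ± 0.583 FPKM (SD, n = 3) in WT and 22.8 ± 0.990 in crwn1;4, and at 38.0 ± 0.904 in pnet2_a and 38.5 ± 4.45 in pnet2_b. IGPS, which closes the indole ring, went from 27.7 ± 1.42 in the double mutant to 53.3 ± 2.75 and 54.6 ± 1.73, and TSA1, the tryptophan synthase alpha subunit, from 35.8 ± 2.17 to 67.6 ± 1.96 and 66.3 ± 0.871. TSB1, a beta subunit, was the 1 gene of the list called in the double mutant against WT (0.25, adjusted p = 0.018), a call lost in 3 of 23 alternatives, one of them without replicate 3 of the double mutant (adjusted p = 0.0743). In pnet2_b, TSB1 lost its call under median-ratio scaling (0.11, adjusted p = 0.191). Of the genes named here and below, ASA1, IGPS, GSTF10, CYP81F4, IGMT5, MYC2, IQD1, WRKY33, GTR1 and GTR2 each overlap another annotated gene. SOT18 and UGT74C1, given above, do so too. The values of all these genes can hold reads of the overlapping gene if counting ignored strand.

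Of 6 genes of aldoxime formation and the core steps, 4 rose in pnet2_a and 5 in pnet2_b. CYP79B2, which makes the aldoxime, stood at 13.7 ± 1.43 FPKM in WT, 16.1 ± 1.54 in crwn1;4, 36.3 ± 3.77 in pnet2_a and 43.9 ± 0.465 in pnet2_b (log2 changes 1.13 and 1.40, adjusted p = 1.18e-06 and 1.02e-07). Its paralogue CYP79B3, of the same activity, gave -0.06 (adjusted p = 0.7) in pnet2_a, not called, and 0.30 (adjusted p = 0.0247) in pnet2_b. That call was lost in 7 of 23 alternatives, with an adjusted p of 0.0860 or 0.115 without replicate 1 or 3 of the double mutant, 0.0701 or 0.0626 without replicate 2 or 3 of pnet2_b, and log2 changes of 0.07 and 0.05 under median-ratio and quantile scaling. GSTF9 and GSTF10, glutathione transferases proposed for sulphur donation, rose in both by 0.46 and 0.58 and by 0.74 and 0.55. GGP1, a peptidase that trims the glutathione conjugate, rose by 0.33 and 0.37, but not under median-ratio scaling (adjusted p = 0.106 and 0.345). The pnet2_a call of GGP1 was also lost without replicate 1 or 3 of the double mutant (0.102 and 0.0620) and without replicate 3 of pnet2_a (0.0750).

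Of 8 further genes of side-chain modification, 3 rose in pnet2_a and 4 in pnet2_b, beside the 22.9% and 38.8% of all genes. After median-ratio scaling 2 and 3 rose. One of the 3 in pnet2_a, IGMT4, named for this reason after its values were seen, lost its call in 11 of 23 alternatives, among them without replicate 1 or 2 of the double mutant (adjusted p = 0.0740 and 0.154) and without replicate 2 or 3 of pnet2_a (0.1602 and 0.130). The methyltransferase genes IGMT2 and IGMT3 were both near 1 FPKM in WT (0.970 and 0.877) and rose by 1.78 and 1.25 in pnet2_a and by 1.79 and 1.22 in pnet2_b. Their coding sequences are 97.4% identical, with an identical stretch of 263 bases, so reads may be split between them and their values are uncertain. IGMT2 is also 92.5% identical to IGMT1 and to IGMT4, with identical stretches of 71 and 59 bases. IGMT4 stood far higher, at 119 FPKM on average in WT, 127 in the double mutant, 158 in pnet2_a and 130 in pnet2_b. Reads shared with IGMT4 were not tested. CYP81F4 and IGMT5, which modify the ring nitrogen, were called in pnet2_b (0.96 and 0.63, adjusted p = 0.0062 and 0.0164) and not in pnet2_a (0.24 and 0.29), and neither was called between the triple mutants (adjusted p = 0.132 and 0.325). The IGMT5 call was lost without replicate 1 of the double mutant (adjusted p = 0.0866), without replicate 2 of pnet2_b (0.0835) and under both median-ratio and quantile scaling (0.103 and 0.161).

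Of 6 tested partners and other regulators, 3 rose in pnet2_a and 4 in pnet2_b, and none fell by limma on FPKM. After median-ratio scaling 3 rose and 1 fell in pnet2_a, and 3 rose and 2 fell in pnet2_b. Those that fell were MYC4 (-0.35 and -0.33, adjusted p = 0.0328 and 0.0357) and, in pnet2_b, IQD1 (-0.32, adjusted p = 0.0475), named after their values were seen. WRKY33, a defence regulator of camalexin genes, stood at 5.25 ± 0.627 FPKM in WT, 10.6 ± 3.44 in crwn1;4, 31.6 ± 1.67 in pnet2_a and 40.4 ± 2.51 in pnet2_b. It rose at each step, by 0.85 in the double mutant against WT (adjusted p = 0.0133) and by 1.54 and 1.88 in the triple mutants against the double mutant. The first of these calls was lost without WT replicate 3 (adjusted p = 0.0505) and with the WT and double mutant libraries fitted alone (0.19). MYC2 and MYC3, basic helix-loop-helix factors that act with the MYB activators, rose by 0.52 and 0.39 in pnet2_a and by 0.70 and 0.49 in pnet2_b. OBP2 gave 0.26 in pnet2_a, not called, and rose by 0.46 in pnet2_b, though not under median-ratio scaling (adjusted p = 0.135). MYC2 in pnet2_a was not called under quantile scaling (0.0632).

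Of 12 genes of activation, breakdown and transport, 3 rose and 2 fell in pnet2_a, and 6 rose and 2 fell in pnet2_b, where in pnet2_a the share of rises was near that of all genes. After median-ratio scaling 3 rose and 3 fell in pnet2_a, and 4 rose and 4 fell in pnet2_b. PCS1, the phytochelatin synthase that acts in the PEN2 defence pathway, rose by 1.05 and 1.14, and PEN3, the plasma membrane transporter that acts with PEN2, by 0.74 and 0.71. GTR2, a glucosinolate importer, rose by 0.74 and 0.74. ESP, which turns breakdown toward nitriles, fell by 0.58 in pnet2_a and by 0.79 in pnet2_b (adjusted p = 0.00046 and 2.19e-05), from 36.2 ± 3.09 FPKM in the double mutant to 23.8 ± 1.89 and 20.6 ± 2.44. The others that fell on FPKM, named here because they were so few, were NSP1 in pnet2_a (-0.36) and GSTU13 in pnet2_b (-0.22). NSP1 lost its call without pnet2_a replicate 2 (adjusted p = 0.0501) and GSTU13 without pnet2_b replicate 2 (0.0720). After median-ratio scaling GSTU13 also fell in pnet2_a (-0.25, adjusted p = 0.0128), and GTR1 (-0.31, adjusted p = 0.018) and ESM1 (-0.24, adjusted p = 0.0291) fell in pnet2_b, though ESM1 rose there under quantile scaling (0.21, adjusted p = 0.0315). The list's median in pnet2_a was 0.05 on FPKM and -0.07 after median-ratio scaling.

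Of 7 aliphatic counterparts of the members, none rose and 1 fell in pnet2_a, and 2 rose and 1 fell in pnet2_b, with medians of -0.09 and 0.20. After median-ratio scaling none rose and 3 fell in pnet2_a, the added ones being MYB28 and MYB29 (-0.20 and -0.35, adjusted p = 0.0378 and 0.0203), and 1 rose and 1 fell in pnet2_b, with a median of -0.05. SOT17 had the smallest adjusted p of the list: it rose in pnet2_b from 19.7 ± 2.65 to 28.0 ± 0.927 FPKM (log2 change 0.50, adjusted p = 0.000887), a call kept in all 23 alternatives, and gave -0.01 in pnet2_a, not called. CYP83A1 gave 0.06 in pnet2_a, not called, and 0.26 in pnet2_b (adjusted p = 0.0219), a call lost in 6 of 23 alternatives. Those include median-ratio scaling (log2 change 0.01) and leaving out replicate 1 or 3 of the double mutant or replicate 1 of pnet2_b (adjusted p = 0.107, 0.0743 and 0.0845). MYB76, an aliphatic activator, fell in both (by 0.83 and 0.51), from 2.08 ± 0.126 FPKM in the double mutant to 0.733 ± 0.190 and 1.18 ± 0.331, the pnet2_b call being lost without replicate 1 or 2 of the double mutant (adjusted p = 0.0539 and 0.0732) and without replicate 2 or 3 of pnet2_b (0.0829 and 0.0850). In the camalexin branch all 5 genes rose in both triple mutants (medians 1.76 and 1.87). Of these, 4 also rose in the double mutant against WT (median 0.70), where 2.41% of all genes rose. None of those 4 calls held with these 2 genotypes fitted alone (adjusted p from 0.0628 to 0.15). PAD3, the last enzyme, went from 0.628 ± 0.0979 FPKM in WT to 1.98 ± 0.656, 18.9 ± 3.28 and 19.4 ± 1.09.

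**Figure D4:**
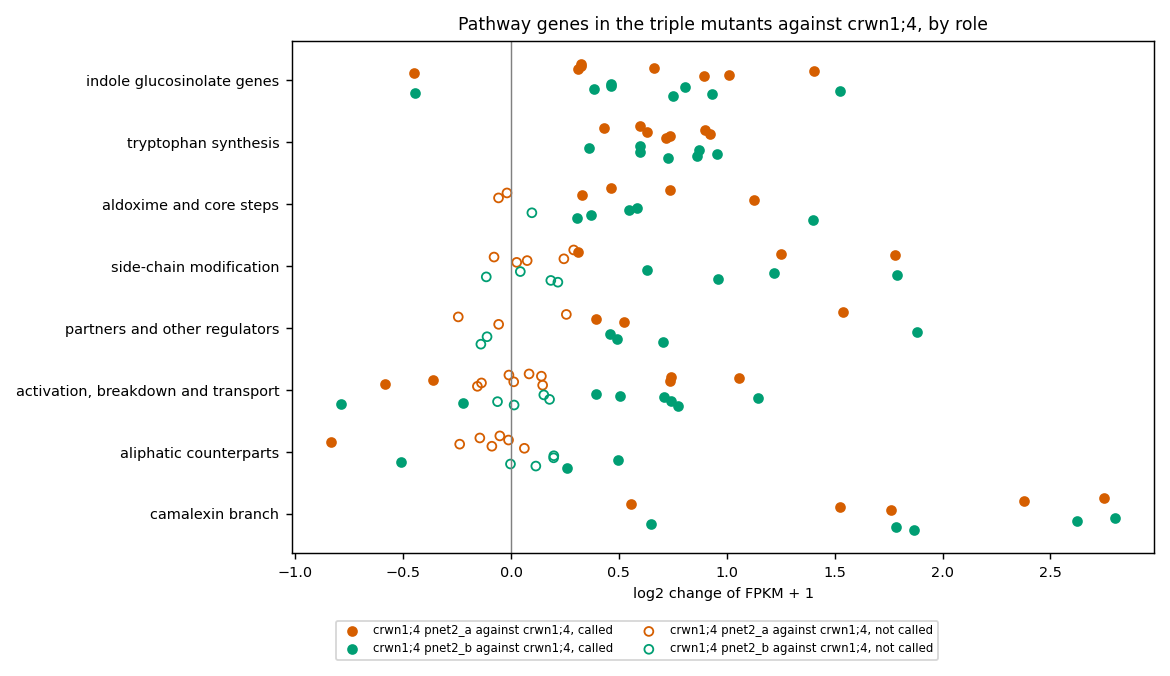
Log2 change of FPKM + 1 (x axis) of each tested gene against the double mutant, by role on the y axis, with the 8 tested members in the top row; the colour gives the triple mutant and filled points are called. All 7 tryptophan synthesis genes lie right of 0 in both, and the 7 aliphatic counterparts lie between -0.83 and 0.50.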

How the data were processed

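Leaf mRNA of 4 genotypes was measured in 12 libraries, 3 per genotype, grouped by the sample titles. Whether replicates came from separately grown plants is not stated, so p-values measure only the spread between these libraries, which may be technical. FPKM per locus were deposited in 1 table, made by the authors from strand-specific libraries per the labels' protocols. The submitters' processing notes name HISAT2 2.0.4 and the build TAIR10; no source used here gives the counting program or whether it used strand. Steps of whole reads could not be recovered from low FPKM values (at most 2.05% of ratios fell in 1 step of 0.01 log2), so depth is unknown.

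Genes reaching 1 FPKM in 3 or more libraries (19110 of 32833) were fitted on log2(FPKM + 1) in 1 model of the 4 genotypes with limma 3.58.1 (R 4.3.3, two-sided, trended variance, Benjamini-Hochberg within each of 6 comparisons). The script was tested on simulated data. Ratios within a library were compared by exact permutation over libraries (SciPy 1.17.1), p adjusted over 6 comparisons. Promoters and coordinates came from the TAIR10.1 reference, in which 32548 loci were found. Coding identity is over aligned bases of a global alignment. FPKM from near-identical copies can share reads.

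The members and lists were chosen with earlier results of these data known. All 9 members were named; other pathway genes were named up to 4 per list by smallest adjusted p, apart from those noted as chosen after their values were seen, and the paralogues and genes that differed between the triple mutants; the 3 nearest genes had a mean of at least 5 FPKM. Alternatives were other pseudocounts, filters and scalings, variance settings, array weights, the 2 genotypes alone, a replicate block and each library left out.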

Additional observations from a re-analysis of the deposited data

Results flagged for a closer look

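Between the triple mutants, 3 of the 51 other pathway genes were called by limma on FPKM, all higher in pnet2_b than in pnet2_a. Of all genes tested, 2.12% were called higher in pnet2_b and 0.754% lower. After median-ratio scaling 2 of the 51 were called higher and 1 lower, GSTF10 (-0.33, adjusted p = 0.0266), where 0.696% and 2.03% of all genes were. BGLU18, a beta-glucosidase of the endoplasmic reticulum bodies, differed by 0.931 on the log2 scale (adjusted p = 0.00582), at 104 ± 19.5 FPKM (SD, n = 3) in pnet2_a and 199.5 ± 37.7 in pnet2_b, a call kept in all 23 alternative settings. NSP1, a nitrile-specifier protein, differed by 0.54 (adjusted p = 0.00956), at 30.7 ± 3.56 and 45.0 ± 4.41 FPKM, and lost the call without pnet2_a replicate 2 (adjusted p = 0.0530). SOT17, a sulphotransferase of aliphatic glucosinolates, differed by 0.508 (adjusted p = 0.0148), at 19.5 ± 1.80 and 28.0 ± 0.927 FPKM. It lost the call under median-ratio scaling (adjusted p = 0.0504) and without replicate 1 or 2 of pnet2_a (0.0660 and 0.0676) or replicate 2 or 3 of pnet2_b (0.0661 and 0.0565). The cause was not tested.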

How the results depend on the processing

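Of the 48 log2 changes of the tested members, 32 kept direction and side of the threshold in all 23 alternatives. Another 11 had a call altered, with 17 calls lost and 7 gained in all. The last 5 changed sign in some alternative, and 0 of these 13 sign changes were called on either side. Between the triple mutants MYB34 became -0.11 under median-ratio scaling, -0.14 under quantile scaling, -0.0084 with array weights and -0.0611 to 0.0681 with a library left out. MYB51 became -0.0048 and -0.0021 under those 2 scalings, and PEN2 -0.0583 under median-ratio scaling. In the double mutant against WT, SUR1 ran from -0.0950 to 0.0108 and UGT74B1 from -0.16 to 0.0450 with a library left out. The count that rose in the double mutant against WT was 0 when these 2 genotypes were fitted alone, and 1 to 3 when a library was left out (3 without WT replicate 2, 2 without WT replicate 3). SUR1 in pnet2_a against WT missed the threshold under median-ratio scaling (adjusted p = 0.0512). With a pseudocount of 1 the log2 ratio of CYP81F2 to CYP83B1 changed sign in pnet2_a against the double mutant (-0.12) and against WT (-0.0027) and in pnet2_b against WT (-0.0698). With a library left out it ran from -0.0788 to 0.175 for pnet2_a against the double mutant and from -0.169 to 0.0847 for pnet2_b. With 50 bases past the start added to the promoter, CACGTG was in 2 members and ACCAACC in 4. The shares of all promoters given above are for the shorter window, so these counts have no background here.

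Same-numbered libraries did not deviate together (correlations of -0.0842 to 0.0678 over 18 pairs), so no shift shared by number was seen. From 3 libraries per genotype, whether the samples were paired cannot be decided. With a replicate block 6 members in place of 7 rose in pnet2_a against the double mutant, UGT74B1 being the one lost (adjusted p = 0.0515).

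Over all genes, 574 were called in the double mutant against WT, 29 with those genotypes alone, 381 without WT replicate 3 and 305 without replicate 3 of the double mutant. Between the triple mutants 550 were called, 123 to 225 when one of their libraries was left out, 201 without the variance trend, 1150 with array weights and 908 with those genotypes alone. Of 84 counts over the pathway lists, 29 moved by more than 1.5 times under some alternative. The depth of the libraries is unknown, which limits most the genes at a few FPKM, CYP81F2 and MYB51 in WT among them.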
